A study of Mus musculus with 6 samples.

Results

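The motor genes described here encode kinesins, dyneins and myosins, the proteins that move cargo and chromosomes along microtubules and actin filaments, together with their light chains, the dynactin complex and melanophilin. They were chosen by gene symbol alone, as every gene of the count table whose name begins with Kif and a digit or C, Klc and a digit, Dync, Dynl, Dctn or Myo and a digit, plus Mlph. Read without regard to letter case, so that Kifc genes are taken in, the rule gave 93 of 22740 genes, and read with strict case 89. Of the 93 genes, 75 passed the filter on low counts and were tested, 18 did not, and 8 of those 18 had no read in any library.

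B16-F3 is an established mouse melanoma cell line. Its cultured cells were sorted by flow cytometry, using the light scatter of melanin, into a high-pigmented (HPC) and a low-pigmented (LPC) fraction. Each fraction has 3 libraries, and the labels give no other difference in genotype or treatment. The libraries count reads at the 3' ends of polyadenylated transcripts, so a count does not grow with transcript length. Whether replicates derive from different cultures or sorting runs is not in the labels, and the p-values therefore describe only how these libraries spread, which can include purely technical variation. Total counts ran from 14695822 to 22186743 per library, of which motor genes took 1.15% to 1.25% in HPC and 1.01% to 1.12% in LPC. Levels are in CPM, counts scaled to a common library total after TMM normalisation, a correction for library composition. A positive log2 fold change means a higher level in HPC.

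Tyr, the gene of the pigment enzyme tyrosinase, followed the labels, with 855 to 994 CPM in the HPC libraries and 62.2 to 261 CPM in the LPC libraries. The summed level of 6 melanocyte lineage genes ranged from 32530 to 35950 CPM in HPC and from 31930 to 34400 CPM in LPC. Summed markers of immune cells stayed at or below 2.86 CPM, of endothelium at or below 0.305 CPM and of keratinocytes at or below 0.135 CPM, while 5 fibroblast matrix genes, which melanoma cells can also express, summed to 8.10 to 28.0 CPM.

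Kinesins are microtubule motors that mostly walk towards the plus ends of microtubules, which in most cells point outwards. One set of kinesins carries organelles and vesicles, whereas another builds the spindle, moves chromosomes and completes cytokinesis, and is made mainly by dividing cells. Cytoplasmic dynein walks towards the cell centre with the help of dynactin. In pigment cells, melanosomes travel along microtubules on kinesin and dynein and are then held in the actin-rich periphery by myosin Va, which reaches the organelle through melanophilin and Rab27a. Loss of any of these last 3 proteins causes pigment dilution in mice.

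The most abundant motor transcript was Myo5a, the myosin Va gene, with a mean of 1876 CPM over the 6 libraries. It was followed by Dync1h1, the dynein heavy chain gene, at 1203 CPM, Myo7a, an unconventional myosin gene, at 934 CPM and Mlph, the melanophilin gene, at 549.6 CPM. Myo5a lay above Dync1h1 in 5 of 6 libraries, the exception being LPC replicate 2. Of the 75 tested genes, 28 had a mean of at least 100 CPM and 10 a mean under 5 CPM. In 35 of them the highest library was less than 1.5 times the lowest.

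**Figure D1:**
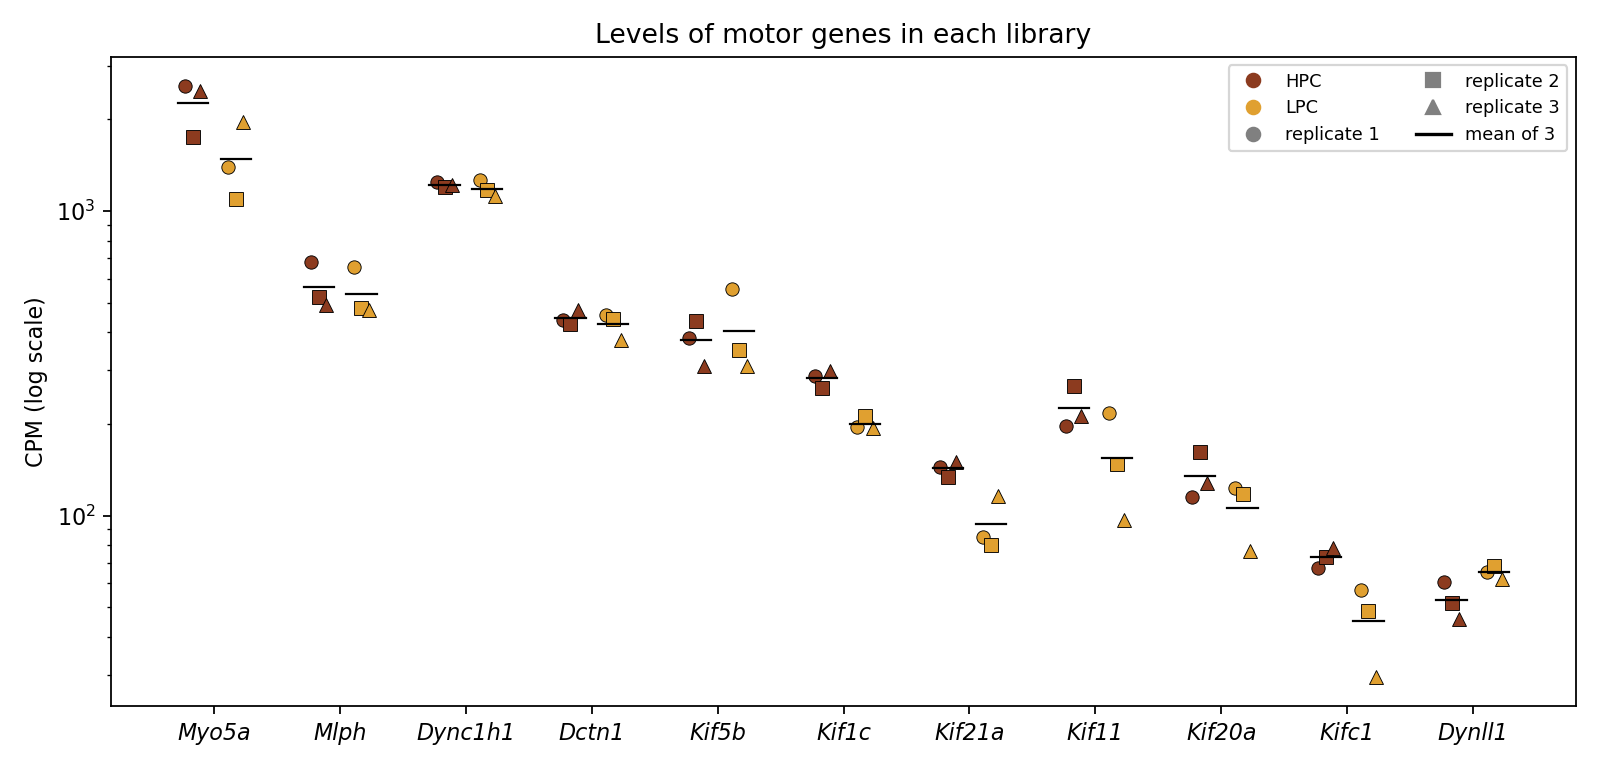
Levels of 11 motor genes in CPM on a log axis, with 1 point per library (HPC dark, LPC light, shapes for replicate numbers) and a bar at the mean of each group. Kif1c, Kif21a and Kifc1 are higher in every HPC library than in any LPC library, and Dynll1 is lower in every HPC library. Myo5a, Kif11 and Kif20a overlap between groups, and Mlph, Dync1h1, Dctn1 and Kif5b show no separation.

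No motor gene passed the test in the comparison that ignores replicate numbers (edgeR quasi-likelihood test, adjusted p under 0.05, 0 of 75), where 0.0419% of all 11921 tested genes passed. At an unadjusted p under 0.05, 12 motor genes were higher in HPC and 2 lower, against 5.06% and 4.31% of all tested genes. DESeq2 called 2 motor genes, Kif1c and Kif21a, both higher in HPC, against 1.88% of all tested genes. Libraries of the 2 groups with the same number tended to deviate together, a hint from the data that the labels do not state. Once that number entered as a block, edgeR called 3 of 75, Kif1c, Kif21a and Myo5a. All 3 were higher in HPC, and 2.52% of all tested genes passed in that fit. DESeq2 with the block called 10, all higher in HPC, where 4.14% of all tested genes passed. These 10 were Kif1c, Kif21a, Myo5a, Kif13b and the 6 mitotic kinesins Kif14, Kif18b, Kif20b, Kif4, Kifc1 and Kifc5b, some of which lie outside the naming rule and were named after their values were seen. The groups did not overlap in 10 motor genes higher and 3 lower in HPC, against 7.16% and 7.18% of all tested genes.

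The myosin that tethers melanosomes had more transcript in HPC once replicate numbers were matched, and its linker did not pass. Myo5a stood at 2573, 1746 and 2485 CPM across the numbered HPC libraries, against 1391, 1096 and 1967 CPM across the LPC libraries in the same order. Each HPC library exceeded the LPC library of its own number, but HPC replicate 2 lay below LPC replicate 3, so the groups overlapped. Myo5a rose with the block, 1.55-fold (log2 fold change 0.63, SE 0.13, edgeR adjusted p = 0.0495), and did not pass without it (log2 fold change 0.61, SE 0.23, adjusted p = 0.49 by edgeR). Its differences on the log2 scale were 0.89, 0.67 and 0.34 in the pairs numbered 1, 2 and 3. The adjusted p with the block lies at the threshold, and it was 0.085 after a correction for transcript length and GC content (log2 fold change 0.49) and 0.40 without the pair numbered 2.

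Mlph was at 678, 521 and 489.8 CPM across the numbered HPC libraries, against 657, 479 and 472 CPM across the LPC libraries in the same order. The groups overlapped, and replicate 1 was the highest in both. Its log2 fold change was 0.071 (95% interval -0.34 to 0.48, edgeR adjusted p = 0.95), and with the block the interval was -0.13 to 0.28. The other class V genes were near or at 0, since Myo5b had no read in any library and Myo5c had between 2 and 11 reads per library. Rab27a, which links melanophilin to the melanosome and is no member of the rule, was named after its values were seen, and stood at 455, 389.5 and 399 CPM (HPC) against 351, 324 and 369 CPM (LPC) (log2 fold change 0.25, SE 0.11, adjusted p = 0.55 by edgeR).

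Of 43 tested genes for motor adaptors and regulators, 34 lay above 0 on the log2 scale, with a median of 0.087 against -0.0091 over all tested genes. With the block edgeR called 1 higher, Mreg, and none lower, and without it none, where 2.52% and 0.0419% of all tested genes were called. At an unadjusted p under 0.05 without the block, 7 adaptor genes were higher and 0 lower, against 5.06% and 4.31% of all tested genes. DESeq2 made no adaptor call in the unblocked fit and 3 in the blocked one, Mreg, Bicd1 and Hook1, all higher, where 4.14% of all tested genes were called. Hook1, a dynein adaptor gene, was named after its values were seen. Mreg encodes melanoregulin, a melanosome protein that works with the dynein and dynactin complex. It stood at 95, 74.5 and 118 CPM (HPC) against 53.2, 43.9 and 83.8 CPM (LPC) and rose 1.62-fold with the block (log2 fold change 0.70, SE 0.10, edgeR adjusted p = 0.025, against 0.48 without it). Like Myo5a, Mreg was lowest in LPC replicate 2 and overlapped between groups. Bicd1, a dynein adaptor gene, was at 48.8 ± 3.53 CPM (HPC) against 33.1 ± 8.08 CPM (LPC) (SD, n = 3 each), and Plekhm1, a gene of lysosome positioning, at 207 ± 25.5 CPM (HPC) against 159.6 ± 8.46 CPM (LPC). Neither passed with edgeR, at adjusted p of 0.062 and 0.087 with the block, while DESeq2 with the block gave adjusted p of 0.012 and 0.055.

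Among transport kinesins, Kif1c differed most clearly, with the smallest p of all tested motor genes without the block (unadjusted p = 0.0014). Kif1c encodes a kinesin-3 motor that carries vesicles over long distances. It was at 288, 263 and 298 CPM across the numbered HPC libraries, against 195, 212 and 194 CPM across the LPC libraries in the same order. All 3 HPC libraries lay above all 3 LPC libraries, with a gap from 212 to 263 CPM. Kif1c rose 1.41-fold with the block (log2 fold change 0.50, SE 0.098, edgeR adjusted p = 0.048) and did not pass without it (log2 fold change 0.50, SE 0.11, adjusted p = 0.19 by edgeR), while DESeq2 called it in both fits (adjusted p = 0.0023 without the block and 0.0035 with it). Its log2 fold change stayed between 0.43 and 0.59 over the alternatives run, but the adjusted p of the blocked edgeR fit was 0.27 when pair 2 was left out and 0.25 when pair 3 was. Those fits left 1 residual degree of freedom.

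Kif21a, a kinesin-4 gene whose product slows microtubule growth at the cell cortex, was at 145, 134 and 150.0 CPM across the numbered HPC libraries, against 85.3, 80.2 and 116 CPM across the LPC libraries in the same order. The HPC libraries were close together and all above LPC replicate 3, the highest of that group. Kif21a rose 1.54-fold with the block (log2 fold change 0.62, SE 0.11, edgeR adjusted p = 0.035), and DESeq2 called it in both fits (adjusted p = 0.022 without the block and 0.00035 with it). In the unblocked edgeR fit it missed the threshold (log2 fold change 0.61, SE 0.15, adjusted p = 0.24 by edgeR) unless LPC replicate 3 was left out (log2 fold change 0.79, edgeR adjusted p = 0.0435). It lost the call without the pair numbered 2 (edgeR adjusted p = 0.34). Its close relative Kif21b was the most abundant kinesin, at 533 ± 73.3 CPM (HPC) against 486 ± 42.9 CPM (LPC) (SD, n = 3 each), and did not pass (log2 fold change 0.13, SE 0.14, adjusted p = 0.83 by edgeR).

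No other transport kinesin passed with edgeR, without or with the block, where 0.0419% and 2.52% of all tested genes did. Kif13b, a kinesin-3 gene, was at 37.2, 34.3 and 41.0 CPM (HPC) against 23.1, 21.6 and 35.5 CPM (LPC), and its groups overlapped, LPC replicate 3 lying above HPC replicate 2. Its log2 fold change of 0.49 (0.52 with the block) was close to that of Kif1c, with an adjusted p of 0.51 by edgeR and 0.088 with the block, and DESeq2 with the block called it (adjusted p = 0.0498). Kif5b, the ubiquitous conventional kinesin heavy chain, was at 384, 436 and 311 CPM across the numbered HPC libraries, against 556, 349 and 311 CPM across the LPC libraries in the same order. LPC replicate 1 was the highest library and LPC replicate 3 the lowest, level with HPC replicate 3, so the groups overlapped (log2 fold change -0.10, SE 0.23, adjusted p = 0.94 by edgeR), and the sign reversed without LPC replicate 1 or HPC replicate 3. Kif1b, a kinesin-3 gene for mitochondria and vesicles, was at 147, 143 and 146 CPM (HPC) against 128, 109 and 131 CPM (LPC), with no overlap (log2 fold change 0.25, SE 0.11, adjusted p = 0.55 by edgeR). Kif3b, a kinesin-2 subunit gene, also had non-overlapping groups at 95, 85.3 and 91.6 CPM (HPC) against 82.1, 73.3 and 74.0 CPM (LPC) (log2 fold change 0.25, SE 0.10, adjusted p = 0.53 by edgeR). Kifc3, a minus-end directed kinesin gene, lay the other way, at 139, 157 and 172 CPM (HPC) against 199.6, 188 and 193 CPM (LPC) (log2 fold change -0.31, SE 0.11, adjusted p = 0.46 by edgeR). Kif13b, Kif3b and Kifc3 lie outside the naming rule and were named after their values were seen. Of the 13 tested transport kinesins, 8 were above 0 on the log2 scale, and their median was 0.089.

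The cargo-binding kinesin light chains were led by Klc1, at 243, 218 and 237 CPM (HPC) against 258, 247 and 256 CPM (LPC). All Klc1 libraries of HPC lay below those of LPC, but by a small margin (log2 fold change -0.12, SE 0.10, adjusted p = 0.78 by edgeR, 95% interval -0.35 to 0.11). Klc3 was scarce, between 0.742 and 2.64 CPM, and its groups overlapped (log2 fold change -0.83, SE 0.51, adjusted p = 0.69 by edgeR).

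Cytoplasmic dynein 1 and dynactin gave no call in any of the 4 edgeR and DESeq2 fits, without or with the block. In those fits 0.0419% to 4.14% of all tested genes were called. Dync1h1 was at 1241, 1197 and 1221 CPM across the numbered HPC libraries, against 1260.0, 1175 and 1121 CPM across the LPC libraries in the same order. The groups overlapped and the interval of the log2 difference was narrow (0.041, 95% interval -0.20 to 0.28, edgeR adjusted p = 0.95). Dctn1, the dynactin subunit that binds dynein, was at 447 ± 25.2 CPM (HPC) against 425 ± 42.4 CPM (LPC) (SD, n = 3 each; log2 fold change 0.073, 95% interval -0.19 to 0.34). The median over the 5 dynein 1 genes was -0.030 on the log2 scale, with 2 positive, and that over the 6 dynactin genes 0.046, with 4 positive. Dync1li2, a light intermediate chain gene, had the smallest p of the dynein 1 genes (log2 fold change 0.17, SE 0.12, adjusted p = 0.75 by edgeR), and Dctn4 of the dynactin genes (log2 fold change 0.14, SE 0.11, adjusted p = 0.77 by edgeR). With the block none of these 11 genes reached an unadjusted p under 0.05 in edgeR, where 10.1% of all tested genes were higher and 8.66% lower. Dync2h1, the heavy chain of the dynein that works inside cilia, was at 54.8 ± 2.42 CPM (HPC) against 51.2 ± 13.9 CPM (LPC) (log2 fold change 0.099, SE 0.19, adjusted p = 0.93 by edgeR).

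No dynein light chain passed in edgeR without or with the block, where 0.0419% and 2.52% of all tested genes did. Dynll1, a small hub protein that dimerises dynein and many other partners, was at 60.4, 51.6 and 45.8 CPM (HPC) against 65.0, 68.4 and 61.9 CPM (LPC). Every HPC library was below every LPC library, but only by 60.4 against 61.9 CPM at the edge, and the difference did not pass (log2 fold change -0.31, SE 0.13, adjusted p = 0.51 by edgeR, and 0.17 with the block). Its paralogue Dynll2 was at 276, 219 and 260.2 CPM (HPC) against 186, 212 and 238 CPM (LPC), with groups that overlapped, HPC replicate 2 lying below LPC replicate 3 (log2 fold change 0.25, SE 0.14, adjusted p = 0.65 by edgeR). Of the 50-base words in the longest coding transcript of Dynlt1a, 15.3% also occur in that of Dynlt1f, but 0% of those nearest the 3' end. How far this affects their separate counts was not tested.

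Of the remaining myosins none passed in edgeR without or with the block, where 0.0419% and 2.52% of all tested genes did. Myo7a, which acts in organelle transport in the retinal pigment epithelium, was at 1059, 834 and 1024 CPM (HPC) against 881, 792 and 1013 CPM (LPC) (log2 fold change 0.12, SE 0.14, adjusted p = 0.86 by edgeR). Myo6, the myosin that walks towards actin minus ends, was at 142, 153 and 177 CPM (HPC) against 107, 116 and 156 CPM (LPC). Each HPC library of Myo6 exceeded its equally numbered LPC library, yet LPC replicate 3 lay above HPC replicates 1 and 2 (log2 fold change 0.31, SE 0.16, adjusted p = 0.62 by edgeR, and 0.13 with the block). Myo10, the filopodial myosin, was at 344 ± 72.1 CPM (HPC) against 369 ± 19.9 CPM (LPC) (log2 fold change -0.10, 95% interval -0.46 to 0.25). Myo1c, the most abundant class I myosin, was at 243 ± 27.2 CPM (HPC) against 229 ± 2.95 CPM (LPC) (log2 fold change 0.088, 95% interval -0.17 to 0.35), and Myo1e at 65.8 ± 4.63 CPM (HPC) against 55.0 ± 10.3 CPM (LPC) (log2 fold change 0.26, 95% interval -0.089 to 0.60; SD, n = 3 each).

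Myo15b had the largest log2 fold change of the tested motor genes but the fewest reads. It had 15, 14 and 21 reads in the HPC libraries and 3, 3 and 4 reads in the LPC libraries. The groups did not overlap (log2 fold change 2.00, SE 0.47, adjusted p = 0.21 by edgeR, and 0.083 with the block). All LPC libraries lay at or below 0.268 CPM, so it passed the count filter through HPC alone, and it overlaps Recql5 on the other strand.

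Myosin II, the contractile myosin that the symbol rule leaves out, gave 9 tested genes with its light chains and regulators, 3 of them above 0 on the log2 scale, with a median of -0.014. edgeR called none without or with the block. At an unadjusted p under 0.05, 1 was higher and 1 lower without the block, against 5.06% and 4.31% of all tested genes, and 1 was higher and 2 lower with it, against 10.1% and 8.66%. DESeq2 made no call here in the unblocked fit and 1 in the blocked one, Ppp1r12a (adjusted p = 0.031), where 4.14% of all tested genes were called. Ppp1r12a, the myosin phosphatase targeting subunit gene, was at 130.4, 122 and 132 CPM (HPC) against 100.3, 79.6 and 108 CPM (LPC) (log2 fold change 0.42, SE 0.13, adjusted p = 0.37 by edgeR). Myl12a, a regulatory light chain gene, was at 146, 162 and 119.6 CPM (HPC) against 168, 199 and 169.7 CPM (LPC) (log2 fold change -0.33, SE 0.14, adjusted p = 0.53 by edgeR).

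**Figure D2:**
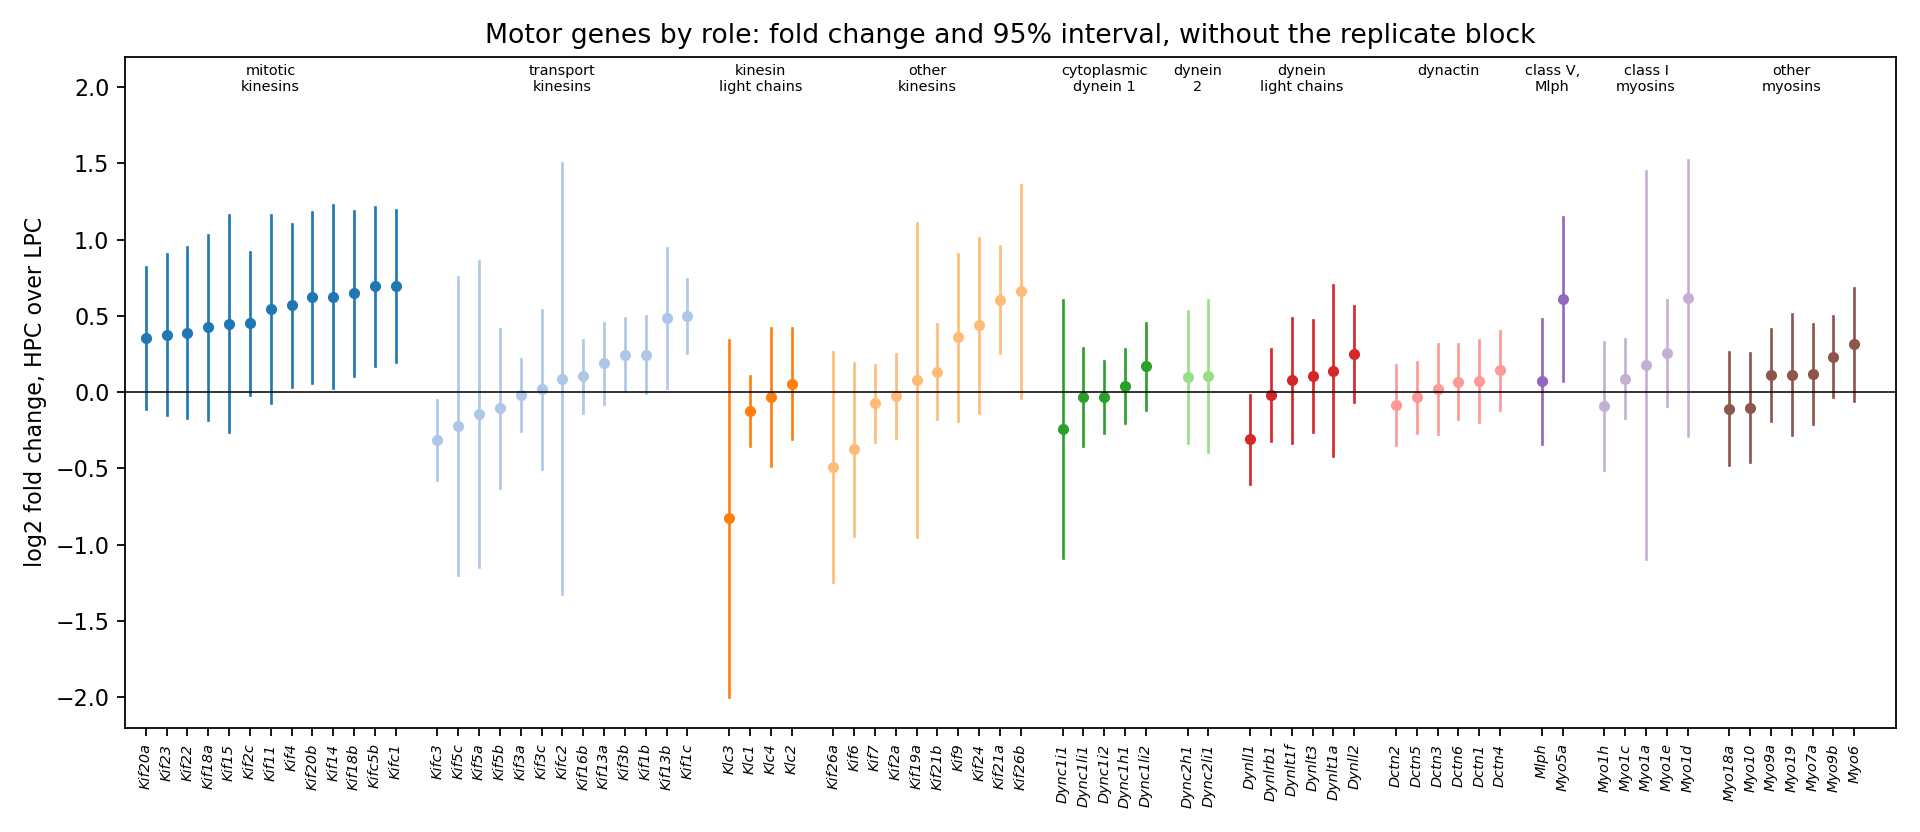
Log2 fold change of HPC over LPC (vertical axis) with its 95% interval from the edgeR fit without the block, for the tested motor genes reported here, grouped by role along the horizontal axis. All 13 mitotic kinesins lie above 0. The intervals of the dynein and dynactin genes cover 0, except that of Dynll1, which lies below it. Kif1c, Kif21a and Myo5a are the members whose difference passed in edgeR with the block. Myo15b is left out for scale.

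Mitotic kinesins and transport motors had different medians between HPC and LPC, though not in every pair of equally numbered libraries. Of 14 genes listed as mitotic kinesins under the symbol rule, 13 were tested. All 13 lay above 0 on the log2 scale, from 0.35 for Kif20a to 0.69 for Kifc1, with a median of 0.55. Kif2a, a relative of Kif2c that was listed with the other kinesins, lay at -0.026 (SE 0.12, adjusted p = 0.98 by edgeR). Kif2a was named after its values were seen. The count of 13 therefore depends on how roles were assigned. The 30 tested transport motors (kinesins, light chains, dynein 1, dynactin, class V myosins and melanophilin) had 17 positive values and a median of 0.032, and all tested genes a median of -0.0091. The medians of the 2 lists were 0.51 apart. No mitotic kinesin passed with edgeR, without or with the block, where 0.0419% and 2.52% of all tested genes did. DESeq2 called 0 without the block and 6 with it, against 1.88% and 4.14% of all tested genes. At an unadjusted p under 0.05 in edgeR without the block, 6 were higher and 0 lower, against 5.06% and 4.31% of all tested genes. With the block 12 were higher and 0 lower at that threshold, against 10.1% and 8.66%.

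The separation rested unevenly on the libraries. LPC replicate 3 was the lowest library for all 13 mitotic kinesins, and HPC replicate 2 the highest for 12 of 13. Their median deviation in log2 CPM, taken from each gene's mean over all 6 libraries, was 0.13, 0.55 and 0.20 across the numbered HPC libraries, against 0.17, -0.19 and -0.86 across the LPC libraries. HPC replicate 1 and LPC replicate 1 were therefore level. In the pair numbered 1, 5 of 13 were higher in HPC (median difference -0.023), whereas in the pairs numbered 2 and 3 all 13 were (medians 0.71 and 1.07). For the transport motors the pair medians were 0.10, -0.053 and 0.057. Mitotic kinesins minus transport motors thus gave -0.12, 0.76 and 1.01 in the 3 pairs, with an SD of 0.59 over the pairs. The 13 mitotic kinesins moved together over the libraries and are not 13 replicates. Without LPC replicate 3 the mitotic kinesin median was 0.30, all 13 stayed positive, and the distance between the lists was 0.28. Without HPC replicate 2 that distance was 0.32, as it was in the blocked fit when pair 3 was left out. At the other end, it was 0.77 without LPC replicate 1, and 0.91 in the blocked fit when pair 1 was left out.

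Genes of mitosis outside the symbol rule had a like order of libraries. Of 39 such genes, 37 lay above 0, the median being 0.45, and their pair medians were -0.037, 0.64 and 0.94. Cenpe, among these 39, encodes a kinesin despite its name (log2 fold change 0.62, SE 0.22, adjusted p = 0.44 by edgeR). DESeq2 with the block called it (adjusted p = 0.0038), and it was named after its values were seen. HPC replicate 2 was highest for 35 of 39 and LPC replicate 3 lowest for 37 of 39. With the block edgeR called 1, Ckap2, a microtubule-associated spindle gene (73.9, 67.0 and 74.8 CPM (HPC) against 53.8, 43.0 and 36.2 CPM (LPC); log2 fold change 0.71, SE 0.13, edgeR adjusted p = 0.036), and without it none, where 2.52% and 0.0419% of all tested genes were called. At an unadjusted p under 0.05 without the block, 14 were higher and 0 lower, against 5.06% and 4.31% of all tested genes. DESeq2 called 1 without the block and 15 with it, against 1.88% and 4.14% of all tested genes. Nusap1, a gene of spindle assembly, was measured at 100.0, 138 and 122 CPM (HPC) against 89.7, 72.9 and 47.0 CPM (LPC) and missed the threshold in edgeR (log2 fold change 0.78, SE 0.23, adjusted p = 0.32 by edgeR, and 0.09 with the block), but DESeq2 with the block called it (adjusted p = 0.0011). In bulk RNA, fewer dividing cells and less transcript per dividing cell cannot be told apart.

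**Figure D3:**
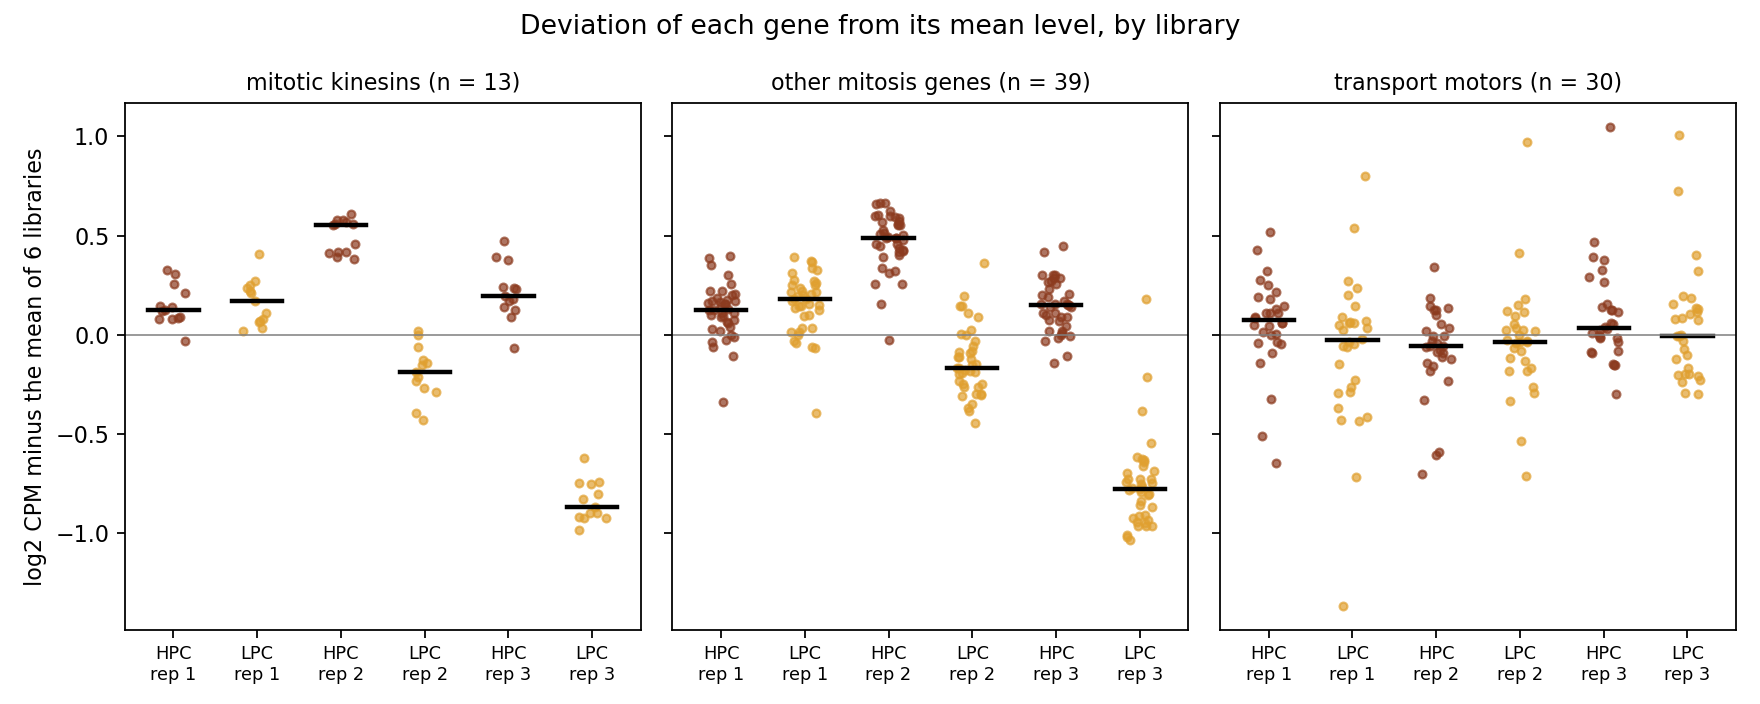
Deviation of each gene's log2 CPM from its mean over the 6 libraries (vertical axis), by library, for 13 mitotic kinesins, 39 other mitosis genes and 30 transport motors, with a bar at each median. The kinesin gene Cenpe, outside the symbol rule, is among the other mitosis genes. Mitotic kinesins and the other mitosis genes share 1 pattern, highest in HPC replicate 2 and lowest in LPC replicate 3, and the medians of the transport motors stay near 0 in every library, while single transport motors lie further away.

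Kif11, the bipolar motor that pushes spindle poles apart, was the most abundant mitotic kinesin, at 196, 266 and 212 CPM across the numbered HPC libraries, against 218, 148 and 96.7 CPM across the LPC libraries in the same order. LPC replicate 1 lay above HPC replicates 1 and 3, so the groups overlapped (log2 fold change 0.55, SE 0.27, adjusted p = 0.61 by edgeR, and 0.2 with the block). Kif23, a subunit of the centralspindlin complex of cytokinesis, was at 126, 159.6 and 132 CPM (HPC) against 141, 109.6 and 71.2 CPM (LPC) (log2 fold change 0.38, SE 0.23, adjusted p = 0.69 by edgeR). Kif20a, which brings the chromosomal passenger complex to the midzone, was at 115, 162 and 128 CPM (HPC) against 123, 117 and 76.5 CPM (LPC) (log2 fold change 0.35, SE 0.20, adjusted p = 0.67 by edgeR). In both, LPC replicate 1 lay within the HPC range.

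Kif2c, the microtubule depolymerase that corrects kinetochore attachments, was at 69.8, 82.9 and 72.3 CPM (HPC) against 66.7, 60.5 and 37.4 CPM (LPC). The groups of Kif2c did not overlap, the lowest HPC library being at 69.8 CPM and the highest LPC library at 66.7 CPM (log2 fold change 0.45, SE 0.20, adjusted p = 0.56 by edgeR). Kifc1, a minus-end directed motor that focuses spindle poles, was at 67.1, 73.2 and 78.1 CPM (HPC) against 57.0, 48.4 and 29.6 CPM (LPC) with no overlap (log2 fold change 0.69, SE 0.22, adjusted p = 0.36 by edgeR, and 0.11 with the block), and DESeq2 with the block called it (adjusted p = 0.0061). Kifc1 shares 45.8% of the 50-base words of its longest coding transcript with Kifc5b, and 50% of those nearest the 3' end, so the counts of these 2 genes are uncertain. Without Kifc5b the median of the 12 other mitotic kinesins was 0.50. Kif18b and Kifc5b were the remaining mitotic kinesins under the symbol rule with groups that did not overlap.

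The 250 bases before the RefSeq start (build GRCm38.p6) are shown for 3 mitotic kinesins and for the 3 genes that passed with the block in edgeR, so that a reader can compare mitotic kinesins with the genes that edgeR called. Capitals mark 3 motifs searched on both strands: CCAAT or ATTGG, the box of the factor NF-Y; TTTGAA or TTCAAA, the letters of the cell cycle homology region of many G2/M genes; and CATGTG or CACATG, an E-box read by MITF, the melanocyte lineage factor.
Kif11 (chr19:37376132-37376381, plus strand): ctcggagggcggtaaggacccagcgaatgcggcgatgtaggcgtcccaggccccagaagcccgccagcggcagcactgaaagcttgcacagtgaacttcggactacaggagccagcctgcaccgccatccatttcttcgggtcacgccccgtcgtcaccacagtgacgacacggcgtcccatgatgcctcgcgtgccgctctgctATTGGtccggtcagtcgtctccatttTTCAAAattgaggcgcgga
Kif23 (chr9:61946800-61947049, minus strand): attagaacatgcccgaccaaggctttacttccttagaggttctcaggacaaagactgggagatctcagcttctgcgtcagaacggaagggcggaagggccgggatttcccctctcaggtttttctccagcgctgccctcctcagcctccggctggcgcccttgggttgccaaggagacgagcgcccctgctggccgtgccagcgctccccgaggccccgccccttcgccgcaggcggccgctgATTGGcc
Kifc1 (chr17:33890634-33890883, minus strand): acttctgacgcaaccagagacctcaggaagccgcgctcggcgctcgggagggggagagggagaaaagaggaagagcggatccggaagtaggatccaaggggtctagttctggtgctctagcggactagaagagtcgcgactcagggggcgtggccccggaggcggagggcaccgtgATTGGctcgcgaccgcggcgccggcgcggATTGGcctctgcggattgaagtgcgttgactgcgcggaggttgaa
Kif1c (chr11:70700298-70700547, plus strand): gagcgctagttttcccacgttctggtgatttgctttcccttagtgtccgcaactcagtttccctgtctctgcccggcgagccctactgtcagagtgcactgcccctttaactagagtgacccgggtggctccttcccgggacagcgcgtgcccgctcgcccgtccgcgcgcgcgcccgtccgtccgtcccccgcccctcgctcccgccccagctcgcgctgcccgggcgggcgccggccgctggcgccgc
Kif21a (chr15:91049952-91050201, minus strand): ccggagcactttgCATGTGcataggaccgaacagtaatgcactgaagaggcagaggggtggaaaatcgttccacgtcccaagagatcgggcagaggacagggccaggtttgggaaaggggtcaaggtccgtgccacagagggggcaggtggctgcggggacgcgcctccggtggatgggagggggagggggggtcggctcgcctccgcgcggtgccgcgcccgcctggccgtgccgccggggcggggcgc
Myo5a (chr9:75070956-75071205, plus strand): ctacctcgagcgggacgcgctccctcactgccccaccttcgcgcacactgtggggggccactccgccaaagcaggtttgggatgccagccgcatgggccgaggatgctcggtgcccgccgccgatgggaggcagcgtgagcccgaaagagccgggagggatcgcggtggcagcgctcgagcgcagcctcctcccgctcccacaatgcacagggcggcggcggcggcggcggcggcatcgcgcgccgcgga

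In these windows Kif11 holds ATTGG 45 bases and TTCAAA 19 bases before the start, Kif23 holds ATTGG at 7 bases and Kifc1 holds it at 74 and 45 bases. Kif21a holds CATGTG at 237 bases, and none of the 3 motifs occurs in the windows of Kif1c and Myo5a. The Myo5a window ends at 75071205, past the GENCODE M21 start of the gene at 75071015, so part of it lies within the annotated gene. The Kifc1 window, from 33890634, also reaches into its gene, which GENCODE M21 ends at 33890661 on the minus strand. RefSeq promoters were found for 72 of the 93 motor genes and 58 of the 75 tested. Among mitotic kinesins, TTTGAA occurred in 5 of 12 (41.7%) and CCAAT in 8 of 12 (66.7%), among transport motors in 1 of 21 (4.76%) and 8 of 21 (38.1%), and among all 27025 genes with a promoter in 18.3% and 37.5%. CATGTG occurred in 1 of 12 mitotic kinesins, 3 of 21 transport motors and 13.8% of all genes. These matches are letters in a window and no measure of binding.

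In GENCODE M21 on GRCm38 the genes with a call and the leading mitotic kinesins were Myo5a (ENSMUSG00000034593) at chr9:75071015-75223688 (plus strand), Kif1c (ENSMUSG00000020821) at chr11:70700548-70731964 (plus strand), Kif21a (ENSMUSG00000022629) at chr15:90933276-91049948 (minus strand), Kif11 (ENSMUSG00000012443) at chr19:37376403-37421859 (plus strand) and Kifc1 (ENSMUSG00000079553) at chr17:33875659-33890661 (minus strand). Mlph (ENSMUSG00000026303) lies at chr1:90915085-90951142 (plus strand) with no overlapping gene. Myo5a overlaps Gm16353 and Gm9719 on the opposite strand, Kif21a Gm49545 on the opposite strand and Kif1c Mir6925 on its own strand. Kif11 overlaps AC137605.4 on its own and AC137605.6 on the opposite strand, and Kifc1 Gm27740 on its own. As the use of strand in counting is not given, reads of opposite-strand genes could have been counted with them.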

How the data were processed

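The authors deposited raw counts per gene for 6 libraries of sorted B16-F3 cells, made with Lexogen's QuantSeq FWD kit, per the labels' protocols. STAR and GRCm38 are named in the submitters' processing notes. Which counter and gene annotation were used, and whether strand or molecular identifiers were, was not stated in any source used here.

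The whole table was fitted with edgeR 4.0.16 in R 4.3.3 (filterByExpr, TMM, quasi-likelihood F-test, group as the only term, Benjamini-Hochberg over 11921 genes, called at an adjusted p under 0.05), and with DESeq2 1.42.0. Standard errors derive from the F statistic. Per-library log2 CPM used a prior count of 2. Equally numbered libraries deviated together from their group means (correlations 0.42, 0.35 and 0.65, each over 0.1, a hint from the data, not the labels). Of the unequally numbered pairs, HPC replicate 2 with LPC replicate 1 also lay over 0.1, at 0.204, and the others were negative. Deviations within a group sum to 0 for each gene, so some negative values are forced and add no separate support for pairing. Values with the replicate number as a block (2 residual degrees of freedom) are given where they change a call. GENCODE M21 gave coordinates for all 93 members.

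On simulated counts of the HPC against LPC comparison (11843 genes without and 11853 with the block), 74% and 93% of 2-fold changes were recovered. For 4-fold changes it was 95% and 100%. False calls were 5 of 174 without the block and 19 of 212 with it. With the block, which gave all 3 edgeR motor calls, their share thus exceeded the adjusted p threshold of 0.05. These figures hold only for counts as simulated. The simulated counts held no replicate effect, and each run used the gene-wise spread estimated by its own fit. The figures without and with the block therefore do not show what a block gains in real counts. Smaller changes were not simulated, and Kif1c, Kif21a and Myo5a rose 1.41-, 1.54- and 1.55-fold with the block. Members, role lists and tests were chosen with earlier results of these data known. Named genes are 14 core genes, every member called in either edgeR fit, the most abundant and the smallest-p member of each role, and for the other lists the called genes and the 2 with the smallest p. One gene that the rule names is not reported here.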

Additional observations from a re-analysis of the deposited data

How the results depend on the processing

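The distance between the medians of mitotic kinesins and transport motors stayed positive in every alternative run. These runs reuse the same libraries and are no independent support, and the pair numbered 1 taken alone gave -0.12. It ran from 0.28 to 0.77 when 1 library was left out, and was 0.91, 0.41 and 0.32 in the replicate block without the pairs numbered 1, 2 and 3. Counts of calls did depend on the fit. Over all genes edgeR called 5 without the block, 28 with no filter, 301 with the replicate block and 336 with the block and the length and GC correction, and DESeq2 called 224 without and 493 with the block. The count was 0 to 43 when 1 library was left out without the block, and 2947, 0 and 196 with the block without the pairs numbered 1, 2 and 3, fits with 1 residual degree of freedom. Over motor genes the count was 0 in the fit without the block, under RLE scaling, library size scaling and no filter, 2 with DESeq2, 3 with the replicate block, 10 with the block in DESeq2 and 2 with the length and GC correction. It was 0 to 1 with 1 library left out (Kif21a without LPC replicate 3), and 32, 0 and 2 with the block without the pairs numbered 1, 2 and 3. The 32 included all 13 tested mitotic kinesins, in a fit that called 2947 of 12018 genes.

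Signs reversed for some named genes with small differences. With 1 library left out, without the block, the log2 fold change ran from -0.0074 to 0.13 for Dctn1, -0.074 to 0.31 for Dync2h1, -0.26 to 0.19 for Kif5b, -0.078 to 0.25 for Mlph, -0.28 to 0.0096 for Myo10 and -0.0057 to 0.15 for Myo1c. Single values past 0 also came for Kif5b without HPC replicate 3 (0.017) and Mlph without LPC replicate 3 (-0.011). In the blocked fits, Dctn1 was at -0.053 when pair 3 was left out. Without the pair numbered 2, Dync2h1 was at -0.038, and without the pair numbered 1 Kif5b was at 0.17. With the length and GC correction Dync1h1 was at -0.072 and Dync2h1 at -0.017. The cause was not tested. RLE and library size scaling reversed none of the genes named here. Members under about 1 CPM rest on few reads, and intervals and p-values there carry little weight.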
